A study of Homo sapiens with 20 samples.

Results

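The miR-424/miR-503 cluster is a group of microRNA (miRNA) hairpins on human chromosome X, at the locus of the long non-coding RNA gene MIR503HG. It was followed through 6 mature miRNAs, namely miR-424-5p, miR-424-3p, miR-503-5p, miR-542-3p, miR-450a-5p and miR-450b-5p, chosen by name out of 2588 mature miRNAs in the count tables. A miRNA starts as a hairpin in a longer primary transcript. The nuclease DROSHA cuts the hairpin out in the nucleus, DICER trims it to a duplex in the cytoplasm, and 1 or both strands (the 5p and 3p arms) then guide Argonaute proteins to messenger RNAs that match the seed, bases 2 to 8 of the mature miRNA. miR-424-5p and miR-503-5p belong to the wider family of miR-15 and miR-16, known for targeting G1 cyclins, cyclin-dependent kinases and other drivers of the cell cycle, and the locus has been linked to exit from the cell cycle and to differentiation.

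Small RNA was sequenced from HCT116, a human colon cancer line, and from HEK293E, an embryonic kidney line, in 20 libraries and 8 groups. DROSHA knockout (KO) HEK293E cells and KO HCT116 cells were each rescued with DROSHA-p140, a shorter form of the enzyme, or with full-length DROSHA, in 3 libraries per form and line. KO HCT116 cells given GFP and untreated wild-type HCT116 cells gave 1 library each. Wild-type HCT116 cells were grown for 72 hr in 0.1% or in 9.1% fetal bovine serum (FBS), in 3 libraries each. The series title asks about DROSHA's proline-rich disordered domain and miRNAs that lie in introns. How the rescue forms were delivered, and whether the knockout lines were single clones, is not given in the sources used here.

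All 6 hairpins lay on the minus strand of chromosome X (hg38, GENCODE 29 gene models). The miR-424 hairpin, chrX:134546614-134546711, straddled the annotated start of MIR503HG (chrX:134543337-134546632, a lincRNA gene with 5 annotated transcripts). It shared 19 bases with the gene, touched an exon in 3 of the transcripts and lay outside the other two. The miR-503 hairpin, chrX:134546328-134546398, began 313 bases downstream of the start of the miR-424 hairpin and was intronic in 3 of the 5 transcripts. The miR-542 hairpin (chrX:134541341-134541437), the miR-450a-2 hairpin (chrX:134540508-134540607), the miR-450a-1 hairpin (chrX:134540341-134540431) and the miR-450b hairpin (chrX:134540185-134540262) followed 5274 to 6449 bases from that start. These last hairpins lay outside every annotated MIR503HG transcript, 1900 to 3075 bases beyond its annotated end. miR-450a-5p was listed under both of its hairpins with nearly the same count (1536 and 1535 reads over all libraries), so its reads cannot be assigned to either copy.

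The mature sequence of miR-542-3p was not among those used here, so it is not shown and its seed was not compared. Mature sequences, from RefSeq on GRCh38.p14 and read 5′ to 3′, are shown with the seed in capitals. Among them the seed sets apart a miR-15-like group and a miR-450 pair, and miR-424-3p is in neither.
miR-424-5p: cAGCAGCAauucauguuuugaa
miR-503-5p: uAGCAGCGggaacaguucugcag
miR-16-5p: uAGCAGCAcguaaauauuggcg
miR-424-3p: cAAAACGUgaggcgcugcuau
miR-450a-5p: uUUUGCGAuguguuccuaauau
miR-450b-5p: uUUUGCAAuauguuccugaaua
The seed of miR-424-5p was shared by 7 mature miRNAs in the RefSeq table, the others being miR-15a-5p, miR-15b-5p, miR-16-5p, miR-195-5p, miR-497-5p and miR-6838-5p. miR-503-5p differed from miR-424-5p within bases 1 to 8 by C1U and A8G, counted from the 5′ end, so that its seed was its own. miR-450b-5p differed from miR-450a-5p over those bases by G7A, and the rest of the pair was alike at most positions (16 of 22 bases identical in all). The seeds of miR-424-3p, miR-450a-5p and miR-450b-5p each occurred in no other mature miRNA of the table. Both arms of the miR-424 hairpin are members, and they are in capitals in the hairpin itself, read 5′ to 3′ on the minus strand.
MIR424 hairpin: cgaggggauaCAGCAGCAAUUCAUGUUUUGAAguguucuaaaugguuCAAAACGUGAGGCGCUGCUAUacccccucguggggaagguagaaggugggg

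Library totals were 135084 to 335803 reads in HEK293E rescue libraries, 305603 to 873718 in HCT116 rescue libraries, 38288 in KO GFP and 856658 to 2822317 in wild-type HCT116. miRNAs known to be made without DROSHA took 69.6% of KO GFP reads, against 1.27% in untreated wild type. In the rescued cells they took 7.03% to 21.0% of reads with p140 and 2.73% to 4.97% with full-length DROSHA in HCT116, and 15.5% to 20.0% with p140 and 10.5% to 12.2% with full-length DROSHA in HEK293E. The HCT116 rescue libraries went against one part of their label. Epithelial and intestinal marker miRNAs (7 listed, led by the miR-200 family) took 0.0306% to 0.0548% of their reads, close to the 0.0459% to 0.0664% of the HEK293E rescue libraries. Wild-type HCT116 libraries held 3.84% to 5.08% and KO GFP 0.483%. miR-21-5p, abundant in colon cancer cells, was at 188173 to 367338 CPM (reads of a miRNA over all miRNA reads of its library, on a common scale) in HCT116 rescue libraries, in the range of wild-type HCT116 (158051 to 378872 CPM) and far above HEK293E (7097 to 9406 CPM). For this reason no test was made between HCT116 rescue libraries and wild-type HCT116, and their levels below are set side by side only. The part that the missing epithelial markers play in the results on HCT116 rescue cells was not tested. Of 11 markers of blood, muscle, neural, endothelial and liver cells, miR-126-3p stood at 131 to 2089 CPM, the other 10 summed to 26.0 to 245 CPM, and miR-206 was at 0 in every library. Replicate 3 stood apart from replicates 1 and 2 in each of the 4 replicated HCT116 groups. The chi-square per degree of freedom was 36.4 to 88.9 for pairs with replicate 3 and 3.57 to 8.29 for replicates 1 and 2. No libraries were identical. Whether replicates were separate cultures is not in the labels, so each p-value reflects only how far these libraries scatter, and that scatter may be technical.

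The cluster was a small part of the miRNA pool in every group, and its share of reads was lower in 0.1% than in 9.1% FBS. The 6 members together took 0.309% ± 0.059 of reads in HEK293E cells with p140 and 0.354% ± 0.050 with full-length DROSHA (SD, n = 3 libraries each). In KO HCT116 cells they took 0.138% ± 0.069 with p140 and 0.122% ± 0.037 with full-length DROSHA. The KO GFP library held 0.0157% and the untreated wild-type library 0.110%. In wild-type HCT116 cells the members took 0.0262% ± 0.0033 in 0.1% FBS and 0.0580% ± 0.0079 in 9.1% FBS. The ranges of the 2 DROSHA forms overlapped within each line, while every library in 0.1% FBS lay below every library in 9.1% FBS. The gap between the lines in these raw shares depends on the scale: for HEK293E over HCT116 the members' median log2 fold change by TMM was 0.49 in p140 cells and 0.53 in full-length cells, but 0.83 and 0.002 for the same forms when libraries were scaled to the miRNAs made without DROSHA. Of all reads from these hairpins, 45.4% were miR-424-5p (6887 reads) and 27.5% miR-503-5p (4176 reads). miR-450a-5p had 1536 reads, miR-542-3p 984, miR-450b-5p 637 and miR-424-3p 534. A relative level of this kind cannot tell less of a miRNA per cell from fewer cells that make it.

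**Figure D1:**
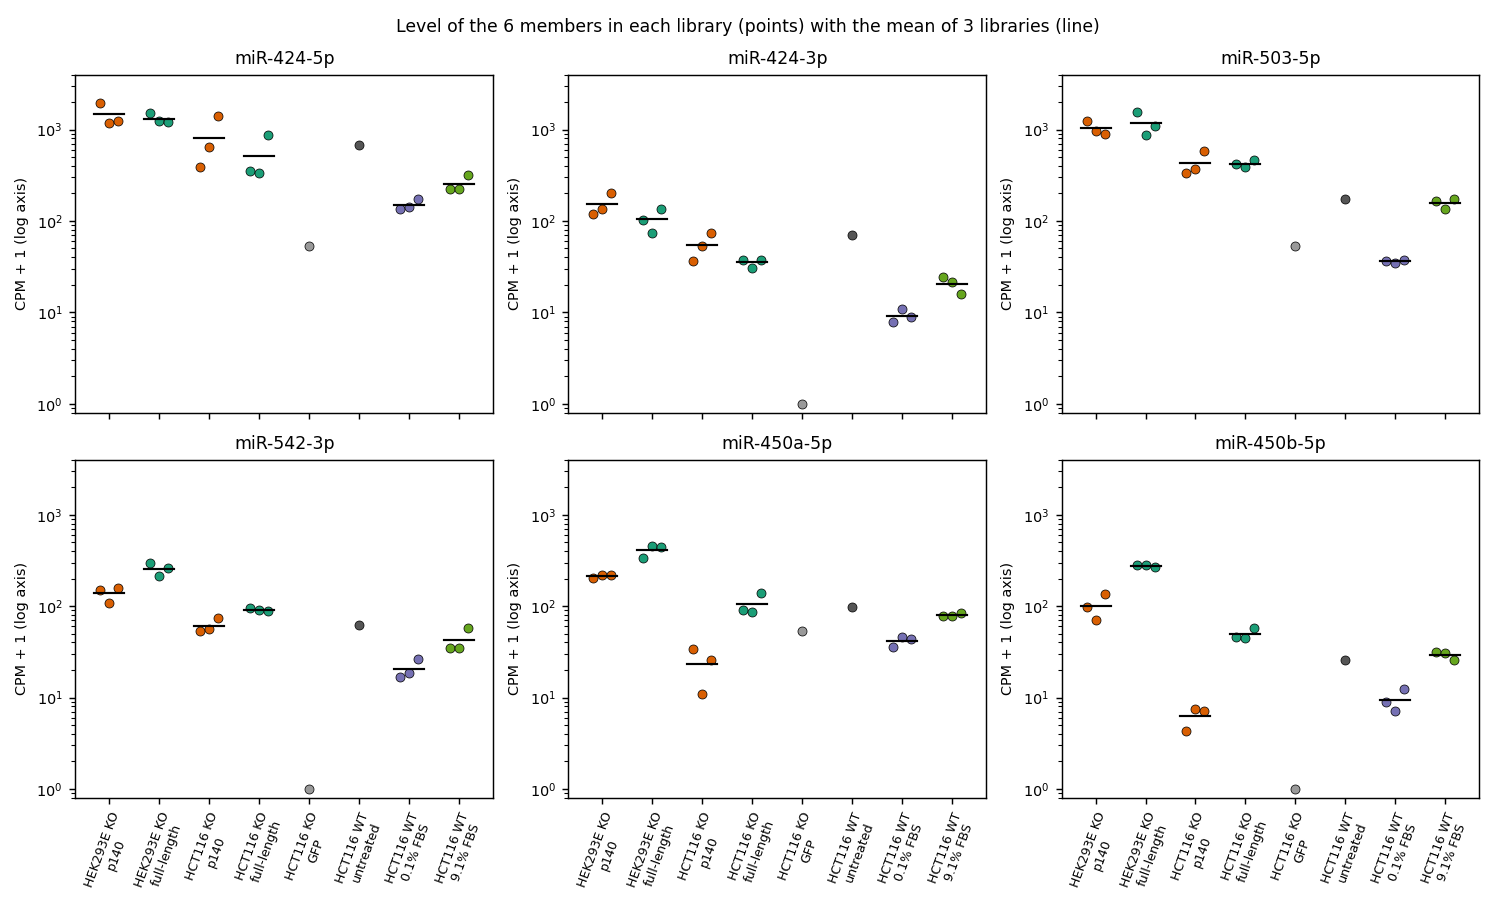
CPM plus 1 (log axis) of each member in each of the 20 libraries, by group; points are libraries and lines are means of 3 libraries. miR-450a-5p and miR-450b-5p drop in HCT116 p140 libraries to 9.82 to 32.6 and 3.26 to 6.54 CPM, while miR-503-5p is low in 0.1% FBS at 33.4 to 36.8 CPM.

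Set on one scale over the 6 replicated groups (TMM-scaled CPM, mean ± SD, n = 3), the members did not share an order. miR-503-5p, miR-542-3p, miR-450a-5p and miR-450b-5p were highest in HEK293E cells with full-length DROSHA, at 672 ± 229, 145 ± 32, 233 ± 32 and 156 ± 9.4 CPM. miR-424-5p and miR-424-3p were highest in HEK293E cells with p140, at 883 ± 177 and 94.5 ± 35.8 CPM. The low end among the 4 rescue groups differed too. miR-424-5p (608 ± 354 CPM) and miR-424-3p (40.4 ± 4.2 CPM) were lowest in HCT116 with full-length DROSHA. miR-503-5p (454 ± 96 CPM), miR-542-3p (64.9 ± 6.1 CPM), miR-450a-5p (24.1 ± 12.9 CPM) and miR-450b-5p (5.73 ± 1.92 CPM) were lowest in HCT116 with p140. Wild-type HCT116 cells in 0.1% FBS held 245 ± 32 CPM of miR-424-5p, 13.4 ± 3.2 of miR-424-3p, 57.4 ± 1.4 of miR-503-5p, 32.0 ± 7.5 of miR-542-3p, 66.7 ± 10.99 of miR-450a-5p and 13.8 ± 3.8 of miR-450b-5p. These values stand beside those of the rescue groups without a comparison, since the HCT116 rescue libraries nearly lack the epithelial miRNAs. The 4 rescue groups overlapped with their neighbours in this order for miR-424-5p and miR-424-3p. For miR-503-5p the forms overlapped within each line, so neither its highest nor its lowest rescue group stood apart. The lowest rescue group of miR-542-3p overlapped with the next as well. For miR-450b-5p only HEK293E with p140 and HCT116 with full-length DROSHA (62.4 ± 24.8 and 57.0 ± 7.8 CPM) overlapped among neighbouring rescue groups.

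The first comparison asks how the cluster differs between cells that have only p140 and cells that have only full-length DROSHA. In HCT116 KO cells the far end of the cluster was lower with p140, and no member at the near end passed. miR-450b-5p and miR-450a-5p were several-fold lower, miR-542-3p was modestly lower, and the near members miR-424-5p, miR-424-3p and miR-503-5p did not pass the test. miR-450b-5p had 1, 2 and 2 reads (3.26, 6.54 and 6.12 CPM) in p140 libraries, against 36, 38 and 43 reads (45.4, 43.5 and 56.3 CPM) in full-length libraries. Every p140 library was below every full-length library by a wide gap. Its log2 fold change was -3.22 ± 0.42 (SE; edgeR's quasi-likelihood test, Benjamini-Hochberg adjusted p = 0.0010). Pooled over libraries the ratio of CPM was 0.111 with a 95% counting interval of 0.0352 to 0.265. miR-450a-5p had 10, 3 and 8 reads (32.6, 9.82 and 24.5 CPM) with p140, against 72, 74 and 106 reads (90.8, 84.7 and 139 CPM) with full-length DROSHA. These groups did not overlap either, and the log2 fold change was -2.31 ± 0.44 (edgeR adjusted p = 0.0046). Both miR-450 members come from hairpins outside the annotated MIR503HG transcripts.

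miR-542-3p, whose hairpin also lies there, had 52.1, 55.6 and 73.4 CPM with p140, against 93.3, 90.4 and 87.7 CPM with full-length DROSHA in HCT116. Its groups did not overlap, at a log2 fold change of -0.67 ± 0.25 (edgeR adjusted p = 0.045). That call ended when any single library other than p140 replicate 3 was left out (edgeR adjusted p = 0.052 to 0.14), and also with DESeq2, RLE scaling, no count filter or 1 fit of all 18 replicated libraries. miR-503-5p had 332, 366 and 578 CPM with p140, against 416, 388 and 461 CPM with full-length DROSHA, and its groups overlapped (log2 fold change -0.09 ± 0.22, edgeR adjusted p = 0.75). miR-424-5p, the most abundant member, had 391, 638 and 1394 CPM with p140, against 353, 331 and 868 CPM with full-length DROSHA. Replicate 3 was the highest library of both groups, and the log2 fold change of 0.51 ± 0.52 did not pass the test (edgeR adjusted p = 0.43). With a replicate block the same difference passed (log2 fold change 0.51, edgeR adjusted p = 0.014), and so it did without replicate 3 of both groups (0.48, edgeR adjusted p = 0.023), whereas without p140 replicate 3 alone it was -0.15 (edgeR adjusted p = 0.76). miR-424-3p, the other strand of that hairpin, had 35.8, 52.4 and 73.4 CPM with p140, against 36.6, 29.8 and 36.6 CPM with full-length DROSHA (log2 fold change 0.56 ± 0.32, edgeR adjusted p = 0.17).

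In all, 3 of the 6 members were lower and 0 higher in HCT116 cells with p140, where 59.6% of the 446 miRNAs tested were called (31.2% lower, 28.5% higher), so the count of called members does not set the cluster apart. The members' median log2 fold change was -0.38, beside -0.11 for all miRNAs tested. The split of calls depends on the scale: 127 miRNAs were higher and 139 lower by TMM, but 0 higher and 170 lower when libraries were scaled to the miRNAs made without DROSHA, which moved the median of all miRNAs to -1.63. On that scale miR-424-5p and miR-424-3p were at -0.88 and -0.95 and miR-503-5p at -1.53, below 0 but above that median, and miR-450a-5p and miR-450b-5p at -4.08 and -5.02, below it.

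In HEK293E KO cells the members stood in the same order of log2 fold change, and the values of the miR-450 pair were nearer 0 than in HCT116. miR-450b-5p had 96.2, 70.2 and 134 CPM with p140, against 281, 279 and 265 CPM with full-length DROSHA. All p140 libraries were lower, by a log2 fold change of -1.35 ± 0.27 (edgeR adjusted p = 0.0041). miR-450a-5p had 200, 216 and 219.5 CPM with p140, against 339, 459 and 438 CPM with full-length DROSHA. Its groups did not overlap and the log2 fold change was -0.87 ± 0.21 (edgeR adjusted p = 0.012). That call ended without full-length replicate 3 (log2 fold change -0.83, edgeR adjusted p = 0.0535), without p140 replicate 1 (-0.74, adjusted p = 0.0503) and without replicate 3 of both groups (-0.84, adjusted p = 0.16). miR-542-3p had 148, 108 and 159 CPM with p140, against 294, 210 and 259 CPM with full-length DROSHA (log2 fold change -0.80 ± 0.26, edgeR adjusted p = 0.044). That call too was lost when any single library other than full-length replicate 2 was left out (edgeR adjusted p = 0.072 to 0.15), and with the same changes of tool, scaling, filter or fit as in HCT116.

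In HEK293E no member at the near end passed with TMM scaling and without a replicate block. miR-424-5p had 1962, 1188 and 1232 CPM with p140, against 1512, 1236 and 1197 CPM with full-length DROSHA (log2 fold change 0.22 ± 0.23, edgeR adjusted p = 0.52). miR-503-5p had 1244, 962 and 890.2 CPM with p140, against 1565, 880.1 and 1081 CPM with full-length DROSHA (log2 fold change -0.12 ± 0.25, edgeR adjusted p = 0.78). Both overlapped between the forms. miR-424-3p had 118, 135 and 199 CPM with p140, against 103, 73.0 and 134 CPM with full-length DROSHA (log2 fold change 0.63 ± 0.33, edgeR adjusted p = 0.20), and it passed with the replicate block (0.64, edgeR adjusted p = 0.037). Again 3 of 6 members were lower and 0 higher, where 26.4% of 416 miRNAs tested were called (21.2% lower, 5.29% higher), or 183 against 110 miRNAs with and without the replicate block. Scaling to miRNAs made without DROSHA gave 4 higher and 212 lower miRNAs in place of 22 and 88, with a median of -0.74 for all miRNAs. On that scale 4 members were lower in place of 3, as miR-503-5p was at -0.82 (edgeR adjusted p = 0.021), below that median. miR-424-5p and miR-424-3p were then at -0.48 and -0.07, below 0 and above the median.

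**Figure D2:**
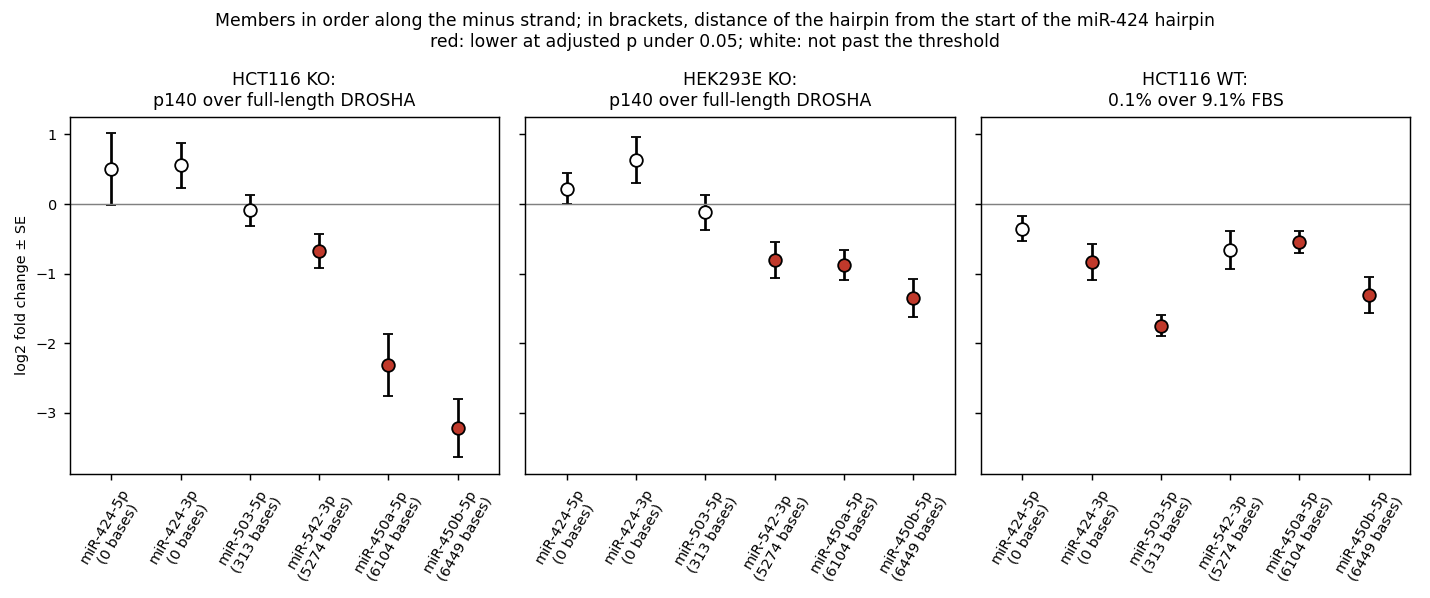
Log2 fold change ± SE (edgeR) of each member in 3 comparisons, in order along the strand, with the distance of its hairpin from the start of the miR-424 hairpin; red points passed adjusted p under 0.05. With p140 the values step down from miR-424-3p to miR-450b-5p in both lines (to -3.22 in HCT116 and -1.35 in HEK293E), while in 0.1% FBS miR-503-5p is lowest at -1.75.

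Ratios within a library remove library size and scaling, and they show the same change in the make-up of the cluster. miR-450b-5p was on average at a log2 ratio to miR-424-5p of -6.71 ± 0.70 with p140 and -3.26 ± 0.58 with full-length DROSHA in HCT116, and of -3.84 ± 0.58 with p140 and -2.24 ± 0.15 with full-length DROSHA in HEK293E (SD, n = 3 each). Averaged within line, the ratio was 5.74-fold lower with p140 (log2 difference -2.52, exact two-sided permutation of libraries within line, p = 0.005, the smallest that 400 arrangements allow, adjusted p = 0.01 over 4 ratios). miR-450a-5p to miR-424-5p was 3.86-fold lower (log2 difference -1.95, exact permutation p = 0.005, adjusted p = 0.01). In both ratios the forms did not overlap in either line. miR-542-3p to miR-424-5p was 2.11-fold lower (log2 difference -1.08, exact permutation p = 0.015, adjusted p = 0.02), with overlap in HCT116 and none in HEK293E. The ratio of miR-503-5p to miR-424-5p, from the hairpins at the near end, differed by -0.45 on the log2 scale, which did not pass (exact permutation p = 0.105), although it did without HCT116 full-length replicate 3 (-0.64, exact permutation p = 0.04).

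As shares of the 6 members' reads, miR-450a-5p made up 1.95% ± 1.65 with p140 and 8.65% ± 0.20 with full-length DROSHA in HCT116, and 7.04% ± 1.51 and 11.96% ± 3.30 for the same forms in HEK293E. miR-450b-5p made up 0.416% ± 0.150 with p140 and 4.10% ± 0.59 with full-length DROSHA in HCT116, and 3.30% ± 1.24 and 7.87% ± 1.01 for the same forms in HEK293E. miR-424-5p took a share of 55.8% ± 9.4 with p140 and 40.3% ± 10.7 with full-length DROSHA in HCT116, and 46.6% ± 4.7 and 37.3% ± 2.0 for the same forms in HEK293E.

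**Figure D3:**
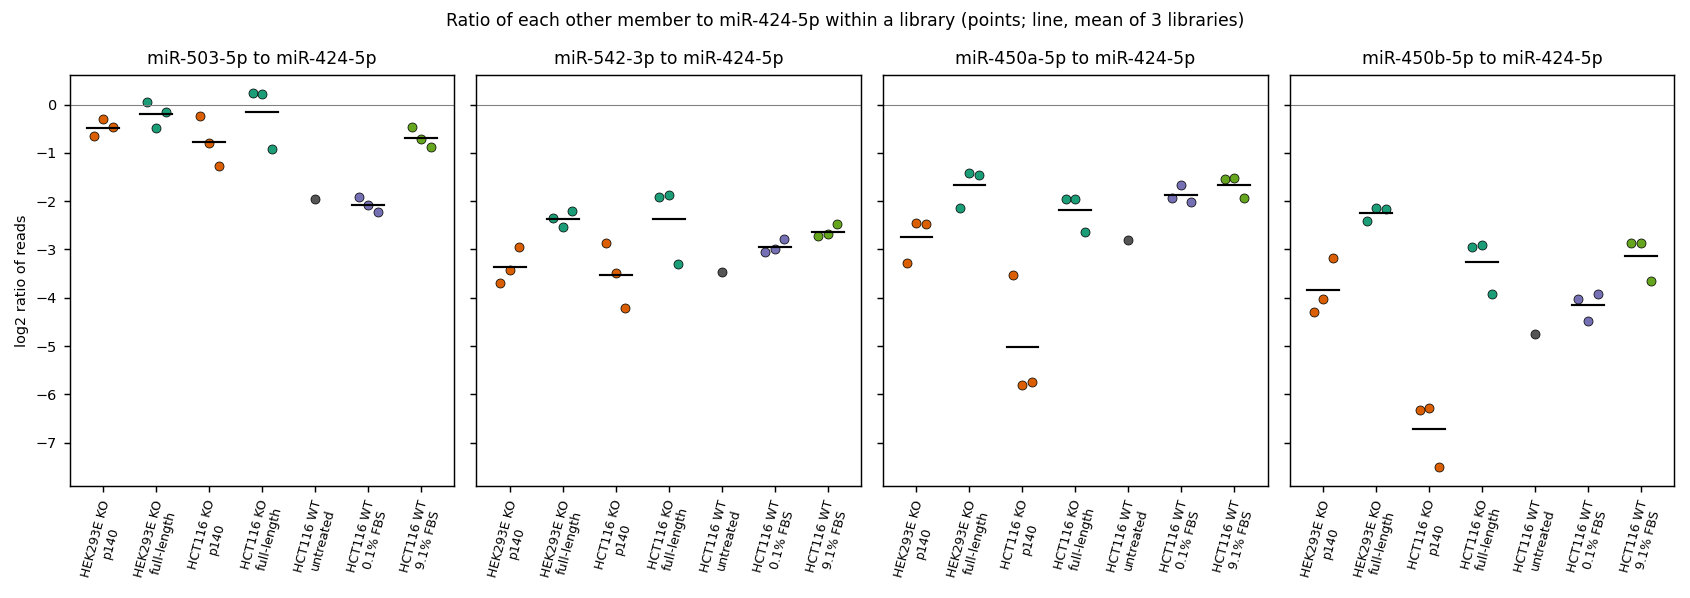
Log2 ratio of reads of 4 members to miR-424-5p in each library, leaving out the KO GFP library with 6 member reads; lines are means of 3 libraries. The p140 libraries lie lowest for miR-450a-5p (-5.80 to -3.52) and miR-450b-5p (-7.51 to -6.29) in HCT116. For miR-503-5p, 0.1% FBS (-2.23 to -1.92) and the untreated wild-type library (-1.95) lie lowest.

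Between the lines, the same miR-450 members passed the test. In cells with p140, miR-450b-5p was higher in HEK293E than in HCT116 by a log2 fold change of 3.29 ± 0.44 (edgeR adjusted p = 1.3e-05) and miR-450a-5p by 2.33 ± 0.36 (edgeR adjusted p = 5.3e-05). With full-length DROSHA they were higher in HEK293E by 1.49 ± 0.26 (edgeR adjusted p = 1.6e-04) and 0.97 ± 0.27 (edgeR adjusted p = 0.0066). No other member passed in either comparison, so 2 of 6 members were higher and 0 lower in each. Of 515 miRNAs tested, 55.3% were called with p140 (27.6% higher, 27.8% lower) and 61.9% with full-length DROSHA (34.6% higher, 27.4% lower). The count of called members thus does not set the cluster apart. The full-length calls ended on the scale of miRNAs made without DROSHA (0.92 and 0.35, edgeR adjusted p = 0.12 and 0.61), on which the split of calls was 96 higher and 138 lower in place of 178 and 141; with p140 it was 145 and 79 in place of 142 and 143. As ratios to miR-424-5p, miR-450b-5p was 3.85-fold higher in HEK293E than in HCT116 within DROSHA form (exact permutation p = 0.005, adjusted p = 0.02 over 4 ratios). miR-450a-5p was 2.64-fold higher in the same test (exact permutation p = 0.015, adjusted p = 0.03). The lines overlapped in this ratio with full-length DROSHA, whereas for miR-450b-5p they overlapped with neither form. The size of the p140 difference between the lines was tested directly as an interaction. It was 1.80 ± 0.54 on the log2 scale for miR-450b-5p (edgeR adjusted p = 0.089) and 1.36 ± 0.46 for miR-450a-5p (edgeR adjusted p = 0.13), a smaller drop in HEK293E that did not pass in either. The other 4 members had adjusted p from 0.78 to 1.00. In all, 0 members passed, where 3.3% of 515 miRNAs did (2.14% higher, 1.17% lower). Without the adjustment, 2 members had p under 0.05 (0.0043 for miR-450b-5p and 0.0093 for miR-450a-5p), and DESeq2 also called 0 members.

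The serum comparison asks how miRNA levels differ between wild-type HCT116 cells kept in low and in full serum. All 6 members had lower mean levels in 0.1% FBS, and miR-503-5p had the steepest drop of the cluster. It had 62, 81 and 104 reads (35.1, 33.4 and 36.8 CPM) in 0.1% FBS, against 286, 251 and 333 reads (164, 134 and 173 CPM) in 9.1% FBS. The 0.1% FBS libraries lay close together and far below the others. The log2 fold change was -1.75 ± 0.15 (edgeR adjusted p = 1.0e-04). Without TMM scaling, the CPM pooled over libraries were 4.46-fold lower (95% counting interval 3.87 to 5.16, which leaves out the scatter between libraries). miR-450b-5p had 7.92, 6.18 and 11.3 CPM in 0.1% FBS, against 30.4, 30.0 and 24.9 CPM in 9.1% FBS, with no overlap (log2 fold change -1.31 ± 0.26, edgeR adjusted p = 0.0039). miR-450a-5p had 34.5, 44.5 and 42.9 CPM in 0.1% FBS, against 76.8, 77.6 and 82.5 CPM in 9.1% FBS (log2 fold change -0.54 ± 0.16, edgeR adjusted p = 0.022). miR-424-3p had 6.79, 9.90 and 7.80 CPM in 0.1% FBS, against 23.5, 20.3 and 15.0 CPM in 9.1% FBS (log2 fold change -0.84 ± 0.26, edgeR adjusted p = 0.028).

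The calls of miR-450a-5p and miR-424-3p were lost without a count filter (edgeR adjusted p = 0.076 and 0.053), that of miR-424-3p also with DESeq2 (adjusted p = 0.058), and both when some single libraries were left out. For miR-450a-5p these were 9.1% FBS replicate 2 and 0.1% FBS replicates 1 and 2 (log2 fold changes -0.56 to -0.46, edgeR adjusted p = 0.057 to 0.064). For miR-424-3p they were 0.1% FBS replicates 1 and 3 and 9.1% FBS replicates 1 and 2 (-0.82 to -0.75, edgeR adjusted p = 0.055 to 0.078). miR-424-5p had 134, 142 and 174 CPM in 0.1% FBS, against 225, 221 and 317 CPM in 9.1% FBS. It did not pass at -0.35 ± 0.18 (edgeR adjusted p = 0.14). Every 0.1% FBS library was lower in CPM, which is before the TMM scaling of the test. The TMM factors, which multiply library size, were 0.86 to 0.87 in 0.1% FBS and 1.12 to 1.18 in 9.1% FBS. Scaled levels of the 2 groups therefore lie nearer each other than CPM. With the replicate block miR-424-5p passed (-0.35, edgeR adjusted p = 0.0032). miR-542-3p had 15.8, 17.7 and 25.2 CPM in 0.1% FBS, against 33.8, 34.2 and 56.6 CPM in 9.1% FBS (-0.66 ± 0.28, edgeR adjusted p = 0.084), and it too passed with the block (-0.67, edgeR adjusted p = 0.0013). Replicate 3 was the highest library of both groups in both of these members.

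In all, 4 of 6 members were lower and 0 higher in 0.1% FBS, or 6 lower with the replicate block and 3 with DESeq2, where 45.8% of 577 miRNAs tested were called (20.3% lower, 25.5% higher). The members' median log2 fold change was -0.75, beside -0.03 for all miRNAs tested. Scaling to miRNAs made without DROSHA gave 22 higher and 244 lower miRNAs in place of 147 and 117 and a median of -0.67 for all miRNAs, and on that scale 6 members were lower. The ratio of miR-503-5p to miR-424-5p was 2.63-fold lower in 0.1% FBS, at -2.08 ± 0.16 on the log2 scale in 0.1% FBS and -0.68 ± 0.21 in 9.1% FBS. These ratios did not overlap (exact two-sided permutation p = 0.1, the smallest that 3 against 3 libraries allow). As a share of the members' reads, miR-503-5p stood at 13.5% ± 1.4 in 0.1% FBS and 27.1% ± 2.2 in 9.1% FBS. The low ratio was not particular to 0.1% FBS. The single untreated wild-type library, whose serum is not in the labels, had a ratio of -1.95 and a share of 15.9%. Ratios to miR-424-5p fell less for the others, by 1.01 for miR-450b-5p and 0.31 for miR-542-3p on the log2 scale, both without overlap and both at exact permutation p = 0.1. For miR-450a-5p the difference was -0.21, with overlap (exact permutation p = 0.2). In the untreated wild-type library these ratios were -4.75 for miR-450b-5p, -3.46 for miR-542-3p and -2.81 for miR-450a-5p. Each lay below its mean in 0.1% FBS (-4.14, -2.94 and -1.88).

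KO HCT116 cells given GFP are the background of the rescue design, with 1 library and 38288 reads. The cluster was at the edge of detection there, with 6 reads in all. miR-424-5p had 2 reads (52.2 CPM) in KO GFP, against 577 reads (674 CPM) in untreated wild type. Its CPM was 12.9-fold lower, with a 95% counting interval of 3.55 to 107. miR-503-5p had 2 reads in KO GFP, against 149 (174 CPM) in wild type, a ratio of 3.33-fold lower whose interval (0.906 to 27.7) includes no difference. miR-450a-5p had 2 reads in KO GFP, against 82 (95.7 CPM) in wild type, 1.83-fold lower with an interval of 0.491 to 15.4. miR-424-3p, miR-542-3p and miR-450b-5p had 0 reads in KO GFP, for which the exact 95% Poisson interval reaches 96.3 CPM. That is above the 68.9, 60.7 and 24.5 CPM of the untreated wild-type library. A difference in these was not detectable at this depth. Of the 2 members with at least 100 reads in either library, 1 was at least 4-fold lower in KO GFP, where 79.9% of 194 such miRNAs were (6.7% were as much higher, so 86.6% differed by that fold). There are no replicates in this comparison, and intervals cover counting error only.

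The miR-424 hairpin was sampled on both arms, with the 5p arm dominant everywhere. The log2 ratio of 5p to 3p reads ran from 2.62 to 4.54 over the 18 replicated libraries. In HEK293E its mean was 3.25 ± 0.71 (p140) and 3.68 ± 0.47 (full-length), and in HCT116 3.73 ± 0.44 (p140) and 3.75 ± 0.70 (full-length). The difference within line was -0.23 (exact permutation p = 0.475). In wild-type HCT116 it was 4.17 ± 0.32 in 0.1% FBS and 3.68 ± 0.61 in 9.1% FBS (exact permutation p = 0.3), and HEK293E against HCT116 differed by -0.27 (exact permutation p = 0.43). None of these 3 tests passed. The 5 other arms of the cluster's hairpins had 6 to 248 reads each over all libraries. Only miR-542-5p had enough reads to be tested, in each comparison but p140 against full-length DROSHA in HCT116, and it passed in none by edgeR (unadjusted p = 0.062 or more).

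miRNAs with the seed of miR-424-5p come from other chromosomes and show what the rest of that seed family did in the same libraries. miR-16-5p dwarfed the cluster. It averaged 14444 ± 2968 CPM with p140 and 13167 ± 1694 CPM with full-length DROSHA in HCT116, and 26573 ± 1747 CPM with p140 and 27394 ± 2367 CPM with full-length DROSHA in HEK293E. It was not called in any of the 3 comparisons of this family. In HCT116 cells with p140, 3 of 5 tested relatives were lower, where 31.2% of all 446 miRNAs tested were, so that with 5 miRNAs the count does not set the family apart. miR-15a-5p had 68, 94 and 249 reads with p140, against 894, 1070 and 1585 with full-length DROSHA (log2 fold change -1.91 ± 0.45, edgeR adjusted p = 0.010). The log2 fold change was -1.36 ± 0.28 for miR-15b-5p (edgeR adjusted p = 0.0069) and -1.10 ± 0.31 for miR-497-5p (edgeR adjusted p = 0.017). The miR-497-5p call ended without p140 replicate 1 (-0.95, edgeR adjusted p = 0.061) or p140 replicate 2 (-1.15, adjusted p = 0.053). miR-195-5p, a neighbour of miR-497 on chromosome 17, was at -0.99 ± 0.42 (edgeR adjusted p = 0.073) and passed with the replicate block (-1.04, adjusted p = 0.014). In HEK293E cells 0 of the 5 passed by edgeR, each with an unadjusted p of 0.47 or more, and DESeq2 called 0 as well. Of all 416 miRNAs tested there, edgeR called 26.4%.

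In 0.1% FBS the seed relatives split, with 2 of 5 higher and 1 lower. Of all 577 miRNAs tested, 25.5% were higher and 20.3% lower, so with 5 miRNAs these counts do not set the family apart. miR-497-5p had 56, 100 and 115 reads in 0.1% FBS, against 29, 47 and 45 in 9.1% FBS, and was higher (log2 fold change 1.21 ± 0.23, edgeR adjusted p = 0.0029). miR-195-5p had 79, 164 and 166 reads in 0.1% FBS, against 69, 64 and 81 in 9.1% FBS, and was also higher (0.98 ± 0.19, edgeR adjusted p = 0.0038). On the scale of miRNAs made without DROSHA these were at 0.56 and 0.33 and did not pass (edgeR adjusted p = 0.19 and 0.37). miR-15b-5p was lower in 0.1% FBS (-0.64 ± 0.11, edgeR adjusted p = 0.0026). miR-15a-5p and miR-16-5p did not pass, and miR-6838-5p had too few reads to be tested in any comparison.

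**Figure D4:**
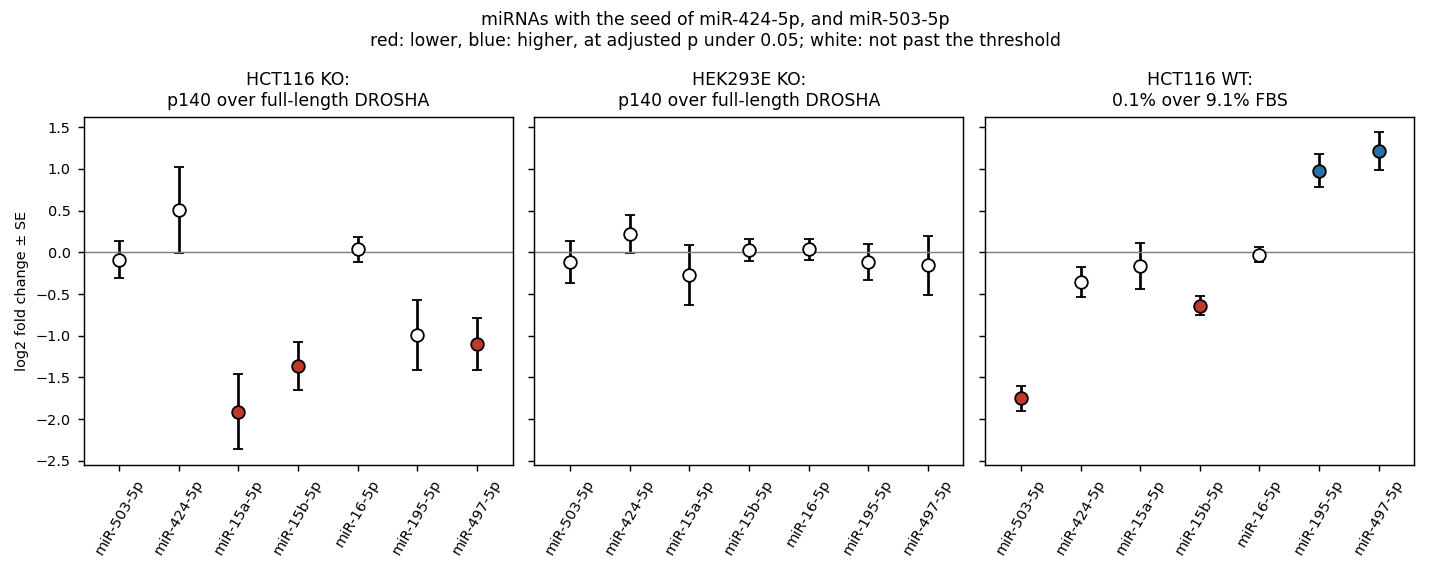
Log2 fold change ± SE (edgeR) of miR-503-5p, miR-424-5p and the 5 tested miRNAs with the seed of miR-424-5p; red is lower and blue higher at adjusted p under 0.05. With p140 in HCT116 3 relatives are lower, in HEK293E none passes, and in 0.1% FBS miR-195-5p (0.98) and miR-497-5p (1.21) are higher where miR-503-5p is lower (-1.75).

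The next miRNA cluster on the same chromosome, that of miR-106a and miR-363, was listed by 4 miRNAs found there and not in the related miR-17 cluster. Only miR-106a-5p and miR-18b-5p had enough reads, and 0 of the 2 passed by edgeR in any of the 6 comparisons, at unadjusted p of 0.084 or more, or by DESeq2. Of all miRNAs tested, 3.3% to 61.9% were called by edgeR in these comparisons.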

How the data were processed

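Total RNA was extracted, mixed with spike-in RNAs, size-selected, ligated to randomized adaptors and sequenced on a MiSeq, per the labels' protocols. cutadapt, STAR and bedtools were used with hg38, per the submitters' processing notes; their versions, the miRNA release and the rule for multiple mapping are unstated there. The deposited tables give raw read counts, 2813 per library, each for 1 mature miRNA of 1 hairpin, with no normalization. Where a miRNA had several hairpins (167 miRNAs), the copy with the highest total was kept.

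Groups and replicate numbers came from the sample titles. Counts were tested over all miRNAs with edgeR 4.0.16 in R 4.3.3 (two-sided quasi-likelihood test with TMM scaling; filterByExpr with minimum count 10; adjusted p under 0.05 by Benjamini-Hochberg), separately per line and for serum, and the line contrasts in 1 fit of 12 rescue libraries; DESeq2 1.42.0 was an alternative. CPM per library use the total of miRNA reads, and fold changes come from TMM-scaled fits. Ratios used a pseudocount of 0.5 and exact permutation of libraries. For 1 library per group, and for CPM pooled over libraries, exact 95% Poisson or binomial intervals cover counting error only, since reads are not independent molecules. The scripts were tested on simulated data. Same-numbered libraries deviated together (r = 0.362 to 0.676 in HCT116 rescue, 0.346 to 0.565 in HEK293E rescue and 0.15 to 0.67 in serum). Unlike-numbered pairs were at -0.446 to 0.151 in HEK293E. In HCT116, replicates 1 and 2 also deviated together across numbers (0.297 and 0.37 in rescue, 0.261 and 0.476 in serum). There the numbers set apart replicate 3 only. Only the replicate block, an alternative fit, took the numbers to pair the samples. The main edgeR fits and the permutations left libraries unpaired. Such a pairing rests on the data, as the labels name no shared batch. The other miRNAs named were the cluster's other arms, the miR-424-5p seed family, 4 miRNAs of the miR-106a cluster, and the 5 with the highest correlation to the summed cluster over 8 groups and over 6 replicated groups. The members and lists were chosen with earlier results of these data known.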

Additional observations from a re-analysis of the deposited data

Results flagged for a closer look

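miR-15b-5p, which has the seed of miR-424-5p, differed between the lines in its response to p140. It had 9535 to 10475 CPM with p140 and 9530 to 10831 CPM with full-length DROSHA in HEK293E, and 887 to 1673 CPM with p140 and 2286 to 3632 CPM with full-length DROSHA in HCT116. The difference between the p140 effects was 1.31 ± 0.30 on the log2 scale (edgeR interaction test, adjusted p = 0.031). That call ended when any 1 of 7 libraries was left out (all but HCT116 p140 replicate 3, HEK293E p140 replicate 1 and the 3 HEK293E full-length libraries; 1.06 to 1.40, edgeR adjusted p = 0.074 to 0.15), with RLE scaling (1.28, adjusted p = 0.051) and with scaling to miRNAs made without DROSHA (2.12, adjusted p = 0.34). With the replicate block it was 1.32 (edgeR adjusted p = 0.0071).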

How the results depend on the processing

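Of the members' p140 calls, miR-450b-5p in both lines and miR-450a-5p in HCT116 passed under each alternative run, and so did miR-503-5p and miR-450b-5p in the serum comparison. Some values near 0 changed sign. In HCT116 with p140, miR-503-5p was 0.018 with DESeq2 and 0.015 with RLE scaling, and -0.41 to 0.035 without single libraries; miR-424-5p was -0.15 to 1.00 without single libraries. miR-503-5p in HEK293E was -0.33 to 0.13 without single libraries. On the scale of miRNAs made without DROSHA, miR-424-5p and miR-424-3p were -0.88 and -0.95 in HCT116 and -0.48 and -0.070 in HEK293E, the miRNAs called were 170 in place of 266 in HCT116, 216 in place of 110 in HEK293E and 0 in place of 17 for the interaction, and 0 in place of 2 members were called between the lines with full-length DROSHA. RLE scaling gave 11 interaction calls. The replicate block gave 183 calls in HEK293E, 326 in place of 266 in HCT116 with p140, 367 in place of 264 in the serum comparison, 21 in place of 17 for the interaction, and 295 and 344 in place of 285 and 319 between the lines with p140 and with full-length DROSHA; of the named miRNAs it changed no other call than those given with it above. Leaving out libraries gave 1 to 3 called members and 47 to 129 called miRNAs in HEK293E, 2 to 5 called members in the serum comparison, and 5 to 85 interaction calls (85 without HCT116 p140 replicate 3). The ratio of miR-503-5p to miR-424-5p within line was -0.64 to -0.32, and that of miR-450a-5p between lines 1.21 to 1.78 (exact permutation p = 0.065 without any 1 of the HEK293E p140 libraries). The causes were not tested. Depth limits miR-450b-5p in HCT116 p140 libraries (5 reads in all) and every member in KO GFP.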

Other observations

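Other miRNAs followed the summed level of the 6 members across the groups. Over the 8 group means, on the scale of log2(CPM + 1), the 5 most alike of 620 miRNAs were miR-30a-3p (Pearson r = 0.946), miR-3613-5p (0.942), miR-148a-3p (0.941), miR-181d-5p (0.934) and miR-196b-5p (0.934), all from other chromosomes. miR-148a-3p averaged 9114 CPM with p140 and 9356 CPM with full-length DROSHA in HEK293E, and 1767 CPM with p140 and 2348 CPM with full-length DROSHA in HCT116. It stood at 313 CPM in KO GFP and 2953 CPM in untreated wild type. In wild-type HCT116 cells it averaged 1200 CPM in low serum and 883 CPM in full serum. That is the reverse of the summed members, which were lower in low serum. The other miRNAs of this list were lower in low serum, as the members were. In untreated wild type miR-148a-3p also lay above both HCT116 rescue means, whereas the summed members lay below theirs. Over the 6 replicated groups alone the 5 most alike of 479 were miR-130a-5p (0.980), miR-301a-3p (0.979), miR-671-3p (0.974), miR-3613-5p (0.972) and miR-877-3p (0.967), so only miR-3613-5p was in both lists. The group means share libraries and their depths, both HEK293E groups are high in the cluster, the groups include HCT116 rescue and wild-type libraries that differ in epithelial miRNAs, and the correlations are a description without a test.

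In KO GFP the abundant seed relatives were still detected. miR-16-5p had 58 reads in KO GFP, against 7373 in untreated wild type, and its CPM was 5.68-fold lower (95% counting interval 4.39 to 7.49). miR-15b-5p had 9 reads in KO GFP, against 1396 in untreated wild type, 6.93-fold lower (3.64 to 15.2).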
